A study of Mus musculus with 6 samples.

Results

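B3gat1 and 5 genes around the HNK-1 carbohydrate that it helps to build were followed in the mouse insulinoma line MIN6, cultured cells that still make and release insulin. The genes were B3gat1, B3gat2 and B3gat3, B4galt2, Chst10 and Ncam1. Every probe set that the array's annotation assigned to exactly 1 of these genes was taken, which gave 6 of 18193 named genes and 17 of 45101 probe sets on the array. B3gat1 has 4 of them, B3gat2 1, B3gat3 2, B4galt2 2, Chst10 1 and Ncam1 7. B3gat1 was chosen by its measured difference between the groups, among the largest increases in these same data. Its differences, and any adjusted p printed with them, are a description and no test. The other genes were chosen for their roles.

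All cells were MIN6 and all had been electroporated with 100 pmol of siRNA. The control siRNA group has 3 arrays and the TDP-43 siRNA group has 3 arrays, the latter against the RNA-binding protein that the gene Tardbp encodes. The sources used here give neither the time from electroporation to RNA extraction nor the siRNA sequences. Nothing in the labels says that replicates of a group came from separate cultures, so p-values measure only the spread between these arrays, which may be technical.

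HNK-1 is a short sugar structure, a sulfated glucuronic acid on a galactose and an N-acetylglucosamine, found at the tips of glycans on neural adhesion molecules. It is built in the Golgi in steps: a galactosyltransferase such as the B4galt2 product lays down the galactose, the glucuronosyltransferase GlcAT-P (B3gat1) or GlcAT-S (B3gat2) adds glucuronic acid, and the sulfotransferase of Chst10 completes the epitope. B3gat3 is the related glucuronosyltransferase that finishes the linkage region on which heparan and chondroitin sulfate chains are built. Ncam1, the neural cell adhesion molecule, is a carrier of HNK-1 and is also made by islet endocrine cells.

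The arrays reported MAS5 signals, a linear measure of brightness scaled to the same trimmed mean of 500.003 on each array, with medians between 72.3 and 79.97. Each probe set reads only its own stretch of a transcript, so levels are compared between arrays and never between probe sets. Pairs of arrays correlated between 0.982 and 0.988 on the log2 scale. With 3 arrays a group, their small number sets the precision. The target was lower in the knockdown: the brightest Tardbp probe set read 3748, 3940 and 3699 in control arrays and 2257, 2249 and 1836 after TDP-43 siRNA (log2 difference -0.85, SE 0.08, limma adjusted p = 0.00187). Its other 4 probe sets were also lower in every TDP-43 siRNA array, by log2 differences down to -1.41 on 1434419_s_at, and the mean over its probe sets was -1.13. As a check of the cell line label, 7 of 10 beta cell markers had a measured probe set of their own. Control means were 7740 for the insulin gene Ins2, 21716 for Iapp, 6126 for Pdx1 and 8429 for Slc2a2. By limma 0 of the 7 passed the test between groups, beside 0.745% of all genes. At an unadjusted p below 0.05 there was 1, beside 12.6%. That gene was Slc30a8, with all TDP-43 siRNA arrays above the control arrays (log2 difference 0.25, limma adjusted p = 0.119). RNA integrity was read as the 3′ minus 5′ log2 signal of the array's control probe sets. Its group difference was 0.02 for Gapdh, with a two-sided exact permutation p of 0.4. For b-actin it was -0.03, with a two-sided exact p of 0.2, where 3 arrays against 3 cannot go below 0.1.

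B3gat1, the enzyme that commits a glycan to HNK-1, was read higher after TDP-43 siRNA on its brightest probe set, 1454821_at. The control arrays read 313, 286 and 339, and the TDP-43 siRNA arrays read 830, 522 and 699. The groups lay apart, with TDP-43 siRNA replicate 2 the lowest of its group and still well above every control array. The means were 313 ± 26.4 and 684 ± 155 (SD, n = 3 each), a ratio of 2.19. On the scale of log2(signal + 12) the difference was 1.08 (SE 0.16), and the adjusted p of the fit over all probe sets, 0.0165 by limma, belongs to the values that chose the gene. It is no evidence beyond them.

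Over refits the size of this difference varied less than its adjusted p. These p-values also come from the values that chose the gene, so they describe the fits and are no test. Leaving out 1 array at a time gave log2 differences between 0.93 and 1.26. The limma adjusted p was then below 0.05 in 2 of the 6 fits, those without control replicate 3 (0.0202) and without TDP-43 siRNA replicate 2 (0.00553). Dropping control replicate 1 gave 0.0898, dropping control replicate 2 gave 0.0780, dropping TDP-43 siRNA replicate 1 gave 0.0570 and dropping TDP-43 siRNA replicate 3 gave 0.0757. Without both arrays numbered 3 the difference was 1.11 (limma adjusted p = 0.0620). With no filter on low values the adjusted p was 0.0741 by limma, and with no intensity trend in the variance model 0.135.

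The other 3 B3gat1 probe sets were much dimmer, and all had the higher mean after TDP-43 siRNA. On 1425691_at the control arrays read 28.5, 77.1 and 51.1 and the TDP-43 siRNA arrays 92.1, 92.2 and 73.3. One control array, replicate 2, lay above TDP-43 siRNA replicate 3, so the groups overlapped. The log2 difference was 0.67 (SE 0.28), and it was 0.38 without control replicate 1 and 0.95 without control replicate 2. On 1425690_at the control arrays read 23.8, 23.8 and 20.5 and the TDP-43 siRNA arrays 42.1, 40.8 and 50.4, which did not overlap. On 1425316_at they read 12.8, 37.9 and 24.5 against 35.9, 27.3 and 62.4, which overlapped widely.

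These last 2 probe sets had mean signals of 33.6 and 33.5, below the level of 41.5 that the filter on low values required, and were not in the fit. The probe set just inside the filter among those followed here was 1450438_at of Ncam1, with a mean of 49.4, and the one just outside was 1425690_at. In a fit with no filter the log2 differences were 0.70 (SE 0.22) on 1425690_at and 0.54 (SE 0.35) on 1425316_at. The control mean of 1454821_at was itself above the filter, so that probe set did not pass through the TDP-43 siRNA group alone. The pseudocount of 12 shrinks the differences of signals this low.

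**Figure D1:**
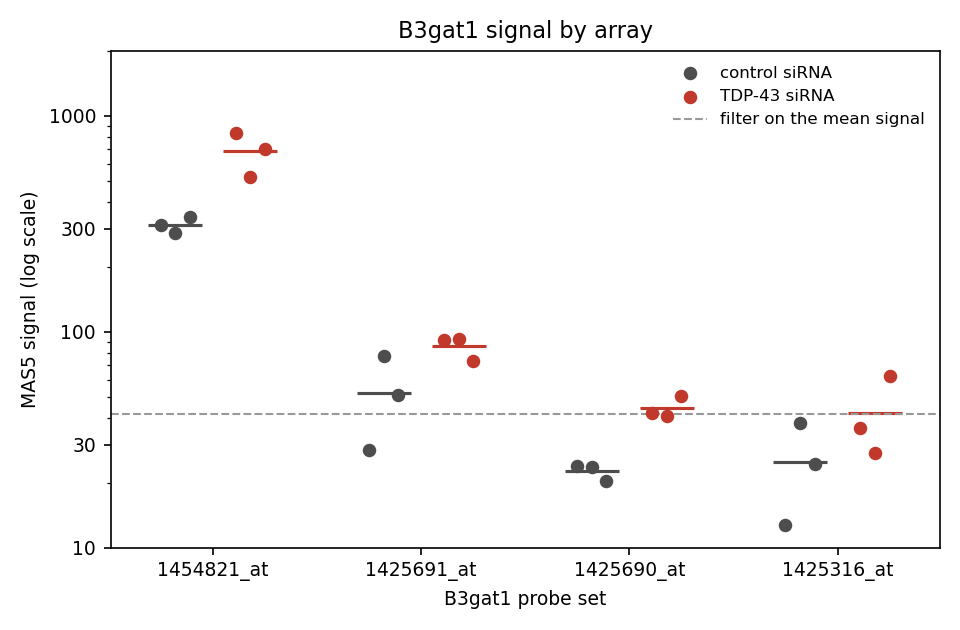
MAS5 signal (log scale) of the 4 B3gat1 probe sets, with a point for each of 3 control siRNA and 3 TDP-43 siRNA arrays, a line at each group's mean, and the filter level of 41.5 dashed. The groups lie apart on 1454821_at and 1425690_at and overlap on 1425691_at and 1425316_at.

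Of the other 5 genes, none had a probe set past the threshold, an adjusted p below 0.05 after correction over all probe sets. Of their 13 probe sets 10 passed the filter and were tested, and 0 had a limma adjusted p below 0.05, against 158 of 27022 probe sets in all (0.585%). At an unadjusted p below 0.05 there was 1 of 10, beside 11.3% of all probe sets. Of the 10, 7 lay above 0 (51.7% of all probe sets did), and their median log2 difference was 0.05 against 0.0064 over all. In 2 of the 10 the groups did not overlap, 1 higher and 1 lower, beside 17.2% of all probe sets. The 10 tested are not the full 13, since 3 were too dim.

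B3gat2, which encodes the second HNK-1 glucuronosyltransferase, was read near the bottom of the scale. Its only probe set, 1442991_at, gave 1, 9.75 and 1 in control arrays and 2.11, 1 and 2.04 after TDP-43 siRNA, where 1 is the lowest value in the table. The groups overlapped, and no difference was detectable at this signal. Of the pair of HNK-1 glucuronosyltransferase genes, only B3gat1 gave a signal above the filter on these arrays.

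B3gat3, which serves proteoglycans and not HNK-1, was read at 483, 435 and 465 in control arrays and at 521, 646 and 529 after TDP-43 siRNA on 1416960_at. All 3 TDP-43 siRNA arrays lay above the control arrays, by little for replicates 1 and 3. The log2 difference of 0.28 (SE 0.11, 95% confidence interval from 0.04 to 0.52) did not pass (limma adjusted p = 0.352), and without TDP-43 siRNA replicate 2 it was 0.19. The second probe set, 1431219_at, read 88.1, 57.0 and 105 against 62.0, 73.8 and 113. There the groups overlapped, with a log2 difference of -0.0098 (95% confidence interval from -0.59 to 0.57, limma adjusted p = 0.995).

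B4galt2, a galactosyltransferase that makes the acceptor for glucuronic acid, was dim on both probe sets. On 1418080_at the control arrays read 99.7, 112 and 97.2 and the TDP-43 siRNA arrays 95.4, 87.8 and 116. On 1448941_at they read 84.7, 71.1 and 72.2 against 105, 73.5 and 59.0. The groups overlapped on both, and the log2 differences had opposite signs, -0.05 (95% confidence interval from -0.42 to 0.33, limma adjusted p = 0.947) and 0.02 (from -0.47 to 0.51, limma adjusted p = 0.985). Changes of up to 0.33 on the log2 scale in either direction lie inside both intervals.

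Chst10, the HNK-1 sulfotransferase, was read by 1 probe set, 1426620_at. The control arrays gave 202, 237 and 167 and the TDP-43 siRNA arrays 225, 223 and 218. The TDP-43 siRNA arrays lay close together and inside the range of the control arrays. The log2 difference was 0.14 (SE 0.14, 95% confidence interval from -0.17 to 0.46, limma adjusted p = 0.760), and it was 0.02 without control replicate 3 and 0.26 without control replicate 2.

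Ncam1, the carrier, was bright on several probe sets, where its differences lay near 0. The brightest, 1426865_a_at, read 3298, 3132 and 3746 in control arrays and 3320, 3605 and 3787 after TDP-43 siRNA. Its log2 difference of 0.08 had a 95% confidence interval from -0.10 to 0.26 (limma adjusted p = 0.781), which leaves out an increase of the size read for B3gat1. On 1426864_a_at the arrays read 3098, 2781 and 3574 against 2922, 3334 and 3388 (log2 difference 0.03, 95% confidence interval from -0.18 to 0.25, limma adjusted p = 0.936). On 1450437_a_at they read 574, 536 and 540 against 550, 660 and 551 (0.09, from -0.13 to 0.31, limma adjusted p = 0.795). The groups overlapped on each of these probe sets.

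An Ncam1 probe set of lower signal went the other way. On 1439556_at the control arrays read 104, 77.4 and 74.2 and the TDP-43 siRNA arrays 59.3, 73.6 and 54.2. All TDP-43 siRNA arrays lay below all control arrays, though replicate 2 missed control replicate 3 by under 1 unit. The log2 difference was -0.38 (SE 0.21, limma adjusted p = 0.526), and without control replicate 1 it was -0.25. The suffix a marks a probe set that reads several transcripts of 1 gene, and the sources used here do not say which transcripts 1439556_at reads.

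The difference in change between 2 probe sets of a gene was tested as well, each against the brightest of its gene. For 1439556_at against 1426865_a_at it was -0.46 (SE 0.19, 95% confidence interval from -0.88 to -0.04, limma adjusted p = 0.714), which did not pass. Over B3gat3, B4galt2 and Ncam1, 0 of 6 such pairs passed by limma, beside 0.0185% of all 10814 pairs, and 1 of 6 had an unadjusted p below 0.05, beside 6.78%. For B3gat1, as a description, the difference on 1425691_at minus that on 1454821_at was -0.40 (SE 0.33) on the log2 scale. The 3 remaining Ncam1 probe sets were dim: 1450438_at read between 35.7 and 67.4 over the 6 arrays, 1425126_at between 12.4 and 40.6 and 1421966_at between 1.87 and 16.2, with overlapping groups on each.

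**Figure D2:**
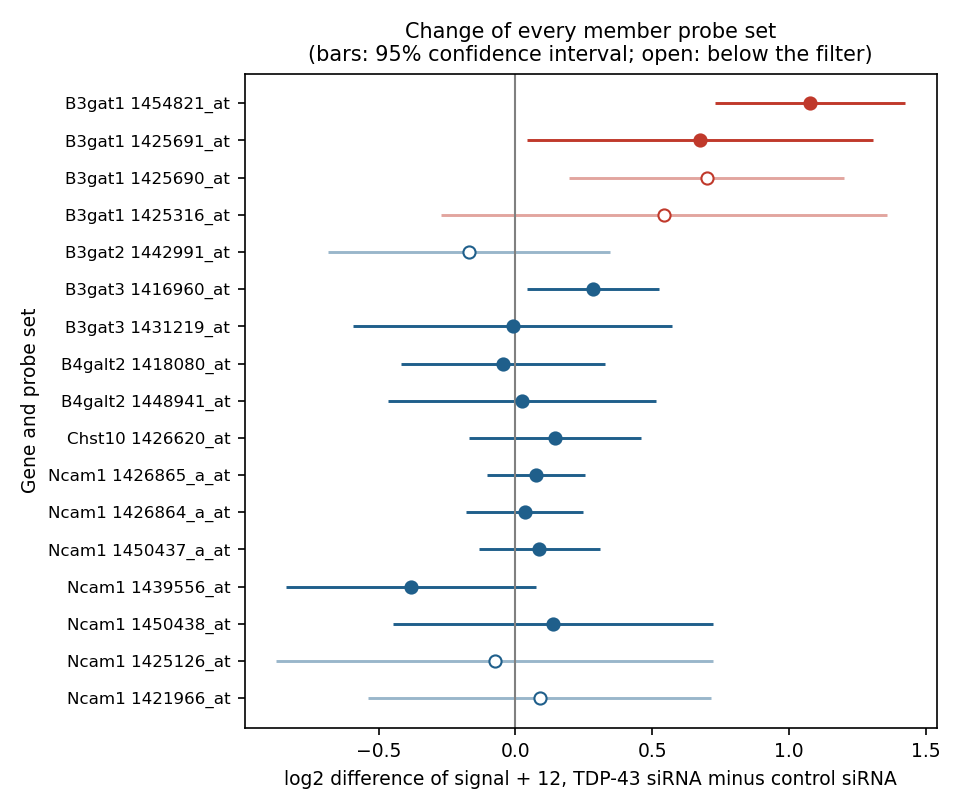
Log2 difference of signal + 12, TDP-43 siRNA minus control siRNA, for each of the 17 probe sets, with 95% confidence intervals of the fit (3 arrays per group) and open points for the 5 below the filter, which come from a fit with no filter. The 4 B3gat1 probe sets (red, chosen for this difference, so their bars are no test) lie between 0.54 and 1.08, and the other genes lie between -0.38 and 0.28.

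Set against the control mean, the arrays showed how unevenly the genes varied. The brightest B3gat1 probe set read 266%, 167% and 224% of its control mean in the 3 TDP-43 siRNA arrays, while its control arrays stayed between 91.6% and 108%. The brightest B3gat3 probe set read 113%, 140% and 115%. The array with the lowest B3gat1 signal of its group, TDP-43 siRNA replicate 2, had the highest B3gat3 signal. For B4galt2, Chst10 and Ncam1 the 3 TDP-43 siRNA arrays lay between 85.4% and 112%, while their control arrays lay between 82.6% and 118%. The brightest Tardbp probe set stood at 59.5%, 59.3% and 48.4%. Tardbp probe sets ordered the TDP-43 siRNA arrays differently. On 1434419_s_at, 1428467_at and 1436318_at replicate 2, lowest in B3gat1, held the most Tardbp signal, with readings of 382, 323 and 230. On the brighter 1423723_s_at and 1455655_a_at replicate 1, highest in B3gat1, held the most, with readings of 2257 and 2019.

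**Figure D3:**
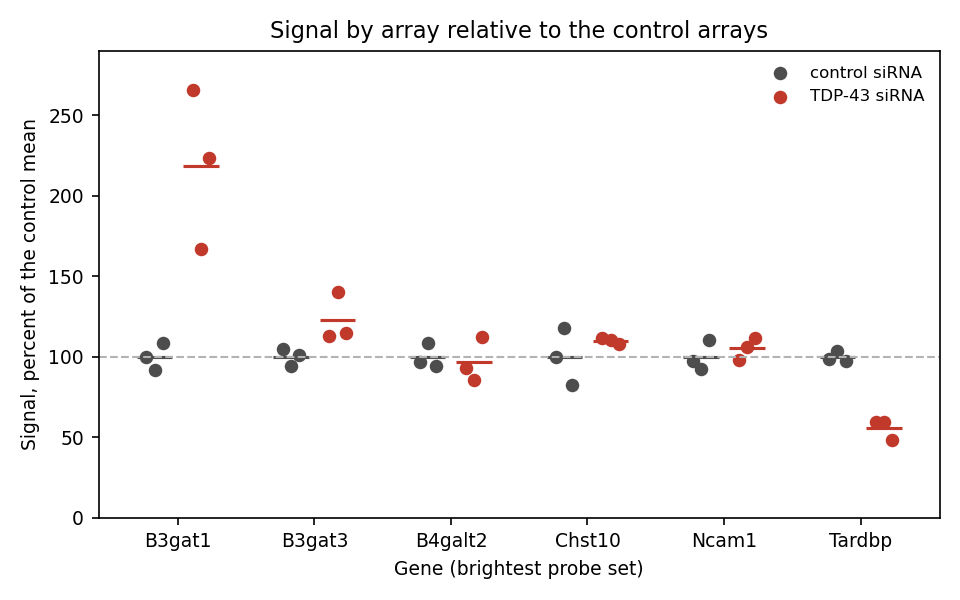
Signal of the brightest probe set of B3gat1, B3gat3, B4galt2, Chst10, Ncam1 and Tardbp on each array, as a percent of that probe set's mean over the 3 control siRNA arrays, with a line at each group's mean. B3gat1 reaches 266% in 1 TDP-43 siRNA array and Tardbp falls to 48.4% in another, while the 3 arrays of Ncam1 stay between 97.9% and 112%.

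Across the 6 arrays, the genes whose log2 values followed those of 1454821_at most closely were named by Pearson's r over 11927 genes. These were Pak7, a p21-activated kinase (r = 0.990), Mr1, which presents metabolites to T cells (0.989), Tmem121 (0.987), Zfp296 (0.985) and Zfp672 (0.984). All were higher in each TDP-43 siRNA array than in each control array, by log2 differences from 0.18 for Zfp672 to 0.70 for Mr1, whose probe sets averaged 0.24. Mr1 and Zfp296 were dim, with control means of 36.8 and 33.3, below the filter level of 41.5. They passed the filter only through the group where they were high. The most opposite were Zfp105 (r = -0.994), the kinase Tnk1 (-0.993, log2 difference -0.52, and -0.18 averaged over its probe sets), Pbdc1 (-0.993), the translation factor Eif4a1 (-0.987) and the ribonuclease angiogenin, Ang (-0.984). Being picked for likeness to a gene that was itself picked for its group difference, these genes were given no test. Among the genes followed here r with B3gat1 was 0.59 for B3gat3, 0.34 for Ncam1, 0.33 for Chst10 and -0.11 for B4galt2, and it was -0.93 for the brightest Tardbp probe set. Each is over 6 arrays that share the same 2 groups, which differ in both B3gat1 and Tardbp.

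The genes around HNK-1 synthesis were taken as 7 lists of 123 genes, of which 95 were measured, each by its brightest probe set. By limma 0 of 95 passed the threshold, beside 94 of 12619 genes in all (0.745%). At an unadjusted p below 0.05 there were 14 of 95, or 14.7%, beside 12.6% of all genes, 12 of them higher and 2 lower. In 18.9% of the 95 the TDP-43 siRNA arrays all lay above the control arrays, beside 9.98% of all genes, and in 2.11% all below, beside 8.32%. Of the 95, 62 lay above 0 (65.3%, beside 55.0% of all genes), and their median was 0.05 against 0.02 over all genes. The differences were small, from -0.59 to 0.45.

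Other HNK-1 carriers and related adhesion molecules gave 0 of 16 past the threshold by limma (1 at an unadjusted p below 0.05), with 11 above 0 and a median of 0.09. Over all genes 0.745% passed, 12.6% had an unadjusted p below 0.05 and 55.0% lay above 0. Gria2, an AMPA receptor subunit that carries HNK-1 in brain, read 836, 778 and 963 in control arrays and 977, 1002 and 979 after TDP-43 siRNA. Its groups lay just apart (log2 difference 0.20, SE 0.09, limma adjusted p = 0.391). The dimmer Gria2 probe sets 1434146_at and 1453098_at were at 0.13 and 0.14 with overlapping groups. Itgb1, the beta1 integrin, was at 0.23 and the proteoglycan Ncan at 0.31 with overlapping groups (limma adjusted p = 0.420 and 0.468). The dimmer tested Itgb1 probe sets 1426918_at and 1427771_x_at were at 0.14 and 0.30 with overlapping groups. Below the filter, Itgb1 1426920_x_at and 1426919_at were at 0.07 and -0.09 with overlapping groups. Its 1438119_at, with a mean signal of 8.31, was at -0.73 with the TDP-43 siRNA arrays all lower. A second tested Ncan probe set, 1423604_at, was at -0.23, and with its probe sets averaged Ncan was at 0.04. L1cam and Nrcam, adhesion molecules of the same superfamily as Ncam1, were at 0.09 and -0.13.

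In the synthesis of the N-glycans that carry HNK-1, 0 of 21 genes passed by limma (4 at an unadjusted p below 0.05), with 17 above 0 and a median of 0.08. All genes gave 0.745% passing, 12.6% at an unadjusted p below 0.05 and 55.0% above 0. Fut8, which adds the core fucose, came closest to the threshold of all 95. Its brightest probe set read 910, 705 and 949 in control arrays and 558, 596 and 524 after TDP-43 siRNA, with the groups apart. The log2 difference was -0.59 (SE 0.12, limma adjusted p = 0.0568), and it passed without control replicate 2 (-0.72, limma adjusted p = 0.0173). Over 18 alternatives its limma adjusted p ran from 0.0173 to 0.232. Its other probe sets, 1443656_at and 1456367_at, were below the filter, at 0.08 and -0.02.

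B3gnt2 and Mgat3, of the same list, lay higher without passing. The branching enzymes Mgat1, Mgat2, Mgat4a, Mgat4b and Mgat5 were at 0.08, -0.08, 0.23, 0.05 and -0.02, with overlapping groups. B3gnt2, which extends chains with N-acetylglucosamine, read 479, 442 and 439 against 557, 560 and 548 (log2 difference 0.29, SE 0.08, limma adjusted p = 0.180). Mgat3, which adds the bisecting N-acetylglucosamine, read 235, 230 and 259 against 352, 301 and 296 (0.37, SE 0.11, limma adjusted p = 0.192). For both genes the groups lay apart on this brightest probe set. The dimmer B3gnt2 probe set 1420852_a_at was at 0.17 with overlapping groups. A second tested Mgat3 probe set, 1422145_at, was at -0.07 with overlapping groups, and the average over probe sets was 0.15. The galactosyltransferases related to B4galt2 were at 0.12 for B4galt1, 0.08 for B4galt3, 0.33 for B4galt4, 0.02 for B4galt5 and 0.10 for B4galt6, and B4galt4 and B4galt6 had their groups apart.

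Among the genes of the proteoglycan linkage region that B3gat3 completes, 0 of 12 passed by limma (1 at an unadjusted p below 0.05), with 9 above 0 and a median of 0.0078. Pxylp1, the phosphatase that acts on the linkage xylose, was at 0.27 (SE 0.09, limma adjusted p = 0.216) with its groups apart. Its dimmer tested probe set, 1429390_at, was at 0.16 with overlapping groups. B3galt6, which adds the galactose just before B3gat3 acts, was at 0.07 (0.15 averaged over its probe sets), and Chpf2, of chondroitin synthesis, at 0.19 with overlapping groups. Among 14 genes that supply sugar nucleotides and active sulfate 0 passed by limma (1 at an unadjusted p below 0.05), with 9 above 0 and a median of 0.07. For both lists the shares over all genes were 0.745% passing, 12.6% at an unadjusted p below 0.05 and 55.0% above 0. Ugdh, which makes the UDP-glucuronic acid that all 3 B3gat enzymes use, was at 0.17 (SE 0.08, limma adjusted p = 0.420) with overlapping groups. Uxs1, which turns that donor into UDP-xylose, was at 0.24 with its groups apart (limma adjusted p = 0.265), and at 0.16 averaged over its probe sets. Ugp2, which makes UDP-glucose, was at 0.12 (limma adjusted p = 0.465) on its brightest probe set, but its 5 probe sets did not move alike. The 3 brighter ones lay between 0.12 and 0.17, with the TDP-43 siRNA arrays all higher, and the dimmer 1426461_at and 1426460_a_at were at -0.70 and -0.57, with the TDP-43 siRNA arrays all lower (limma adjusted p = 0.126 and 0.186). The mean of its probe sets was at -0.16. Slc35d1, a transporter of UDP-glucuronic acid, was at -0.02, and Papss1 and Papss2, which make the sulfate donor for Chst10, were at 0.11 and 0.04.

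Golgi sulfotransferases other than Chst10 gave 0 of 8 past the threshold by limma (1 at an unadjusted p below 0.05), with 4 above 0 and a median of -0.01. Shares over all genes were 0.745% passing, 12.6% at an unadjusted p below 0.05 and 55.0% above 0. Chst1, a sulfotransferase of keratan sulfate, stood furthest from 0, at 278, 369 and 376 in control arrays and 550, 434 and 425 after TDP-43 siRNA (log2 difference 0.45, SE 0.14, limma adjusted p = 0.213), with the groups apart. Chst8, which like Chst10 belongs to the HNK-1 sulfotransferase family, was at -0.05, and Chst11, of chondroitin sulfation, at 0.08.

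Ncam1 also carries polysialic acid. Of 12 genes of polysialic acid and sialic acid supply 0 passed by limma (4 at an unadjusted p below 0.05), with 7 above 0 and a median of 0.07. Among all genes 0.745% passed, 12.6% had an unadjusted p below 0.05 and 55.0% lay above 0. St8sia4, a polysialyltransferase of Ncam1, read 714, 693 and 582 in control arrays and 562, 434 and 507 after TDP-43 siRNA. Its groups lay apart, but the log2 difference of -0.40 (SE 0.12) did not pass (limma adjusted p = 0.181), and its dimmer probe set 1430391_a_at was at -0.03, for an average of -0.21. St8sia1, the GD3 synthase, was at 0.29 and the lysosomal sialic acid exporter Slc17a5 at 0.21 (limma adjusted p = 0.309 and 0.367). St8sia1 averaged 0.15 over its probe sets. In O-mannosyl glycan synthesis, which can also carry HNK-1, 0 of 12 passed by limma (2 at an unadjusted p below 0.05), with 5 above 0 and a median of -0.02. These counts stand beside the same shares over all genes. Pomgnt2 was at 0.29 (limma adjusted p = 0.126) and Rxylt1 at 0.31 (limma adjusted p = 0.188), both with the groups apart, and Pomgnt1 was at -0.19 with overlapping groups. The dimmer Pomgnt2 probe set 1435677_at was at 0.17 with overlapping groups.

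**Figure D4:**
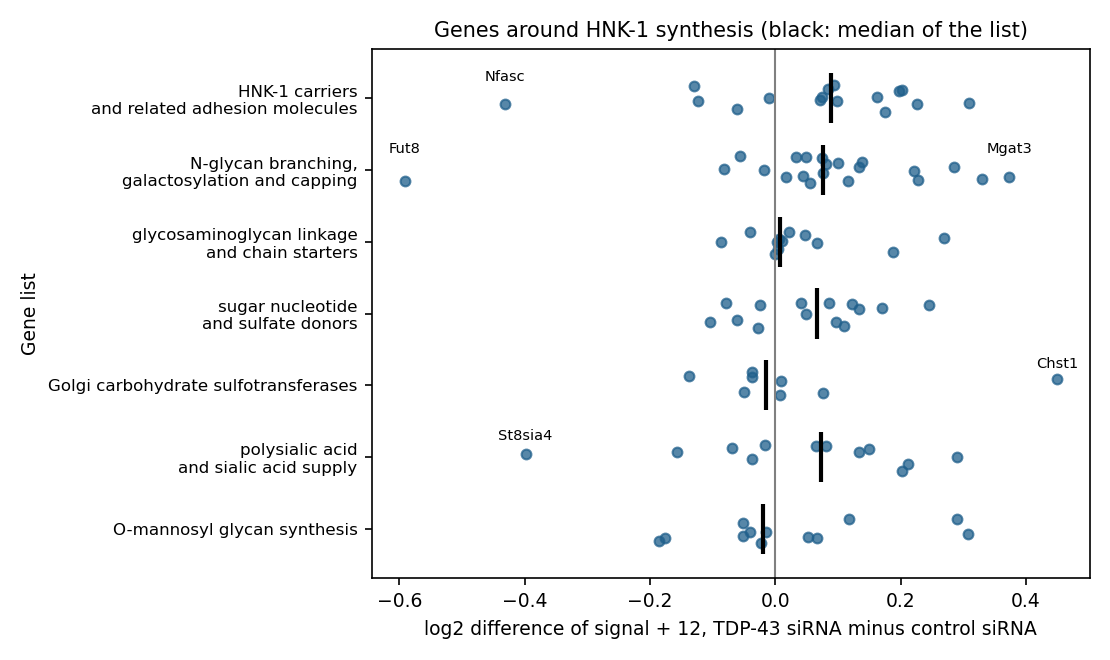
Log2 difference of signal + 12, TDP-43 siRNA minus control siRNA (3 arrays per group), with a point for each measured gene of the 7 lists around HNK-1 synthesis, the 6 genes followed here left out, and a black line at each list's median. Fut8 at -0.59 and Chst1 at 0.45 stand furthest out, and the list medians lie between -0.02 and 0.09.

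HNK-1 and B3gat1 are also known from neurons, glia and lymphocytes, so markers of those cells were read on the same arrays. Neuron markers were measured for 6 of 6 genes, as is usual for beta cell lines. Beside 0.745% and 12.6% of all genes, 0 of the 6 passed by limma and 1 had an unadjusted p below 0.05. Their summed signal ran from 25638 to 26350 in control arrays and from 25978 to 26660 after TDP-43 siRNA. Of 6 markers of Schwann cells and glia only Sox10 and Mbp were measured, with summed signals from 1183 to 1373 and from 1233 to 1529. Of 6 lymphocyte and NK cell markers only Prf1 was, from 133 to 172 and from 126 to 148, and Ptprc and Cd3e were below the filter. Of 6 markers of other islet cells Gcg and Sst were measured. Gcg had means of 9264 and 8165 with overlapping groups (log2 difference -0.17, limma adjusted p = 0.613). Dim Sst read 9.92, 42.1 and 23.3 in control arrays and 97.3, 43.2 and 46.7 after TDP-43 siRNA. Its control mean of 25.1 lay below the filter, so it passed only through the group where it was high and is given without a test. These markers' part in the B3gat1 difference was not tested. In RNA from whole cultures, fewer cells of a type and less RNA per cell cannot be told apart.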

How the data were processed

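RNA of 6 MIN6 samples was made into biotinylated cRNA and read on Affymetrix expression arrays, per the labels' protocols. The authors used MAS5, per the submitters' processing notes (version not given), and deposited linear signal intensity for 45101 probe sets. Detection calls were not used here. The trimmed mean leaves out 2% of values on each side. Gene names came from GEO's platform annotation (34945 with 1 gene, 932 with several, 9160 with none, 64 controls), and 34741 symbols were updated through RefSeq's gene table for GRCm38.p6. Signals plus 12 were put on the log2 scale. Probe sets whose mean over the 6 arrays was at or below 41.5, the lowest 40%, were left out, leaving 27022. Genes were read by their brightest probe set (12619 genes). The test was limma 3.58.1 under R 4.3.3 (eBayes with intensity trend, two-sided), Benjamini-Hochberg adjustment over all features and a threshold of 0.05; intervals are those of the fit. Figures used matplotlib 3.10.9. On simulated data for this comparison over 27022 probe sets, 58% of 100 changed by 0.5 and 93% of 100 changed by 1 were recovered, and 7 unchanged were called. The simulated noise was independent and normal, with a spread set by mean signal alone. Probe sets of like signal thus shared 1 spread, which real ones need not, so recovery in the real data may be lower.

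The text names every probe set of the 6 genes, Tardbp, up to 3 genes with the smallest p of each list (a few more, chosen for their role after their values were seen), and the 5 genes most like and most opposite to B3gat1, leaving out predicted genes. The members and lists were chosen with earlier results of these data known. Alternatives were other pseudocounts, filters, scalings, variance models, array weights, a replicate block, averaging over each gene's probe sets, and arrays left out.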

Additional observations from a re-analysis of the deposited data

How the results depend on the processing

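The counts over the 5 genes chosen by role past the limma threshold (0 probe sets, 0 pairs) were the same under all 17 alternatives run. At an unadjusted p below 0.05, 1 probe set and 1 pair as reported became between 0 and 2 probe sets and between 0 and 1 pairs. The number of probe sets called over the whole array, 158, was 69 with no filter, 0 with no intensity trend (limma, 2896 at an unadjusted p below 0.05), 241 without both arrays numbered 3, and between 56 and 325 with 1 array left out. The number of genes called, 94, was 51 with no filter, 12 with no intensity trend, 161 with array weights, 61 with each gene's probe sets averaged, 214 without both arrays numbered 3, and between 31 and 253 with 1 array left out. The 0 related genes became 1, Fut8, with 60% of probe sets dropped, with robust variance, with array weights, and in 1 fit with an array left out (range 0 to 1). The cause of these changes was not tested.

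With 1 array left out, near-zero differences turned sign without passing: B3gat3 1431219_at ran from -0.23 to 0.15, B4galt2 1418080_at from -0.15 to 0.030, B4galt2 1448941_at from -0.17 to 0.19, Ncam1 1426864_a_at from -0.053 to 0.13, Ncam1 1450438_at from -0.024 to 0.34 and Chpf2 from -0.013 to 0.35. With quantile normalization B3gat3 1431219_at was at 0.0037, and with the mean of probe sets Ugp2 was at -0.16. B3gat1 1454821_at stayed between 0.93 and 1.26 under all 17 alternatives. Tardbp missed the threshold with no intensity trend (limma adjusted p = 0.0608).

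The replicate numbers are shared by the groups, but same-numbered arrays deviated in opposite ways for numbers 1 and 2 (correlations -0.12 and -0.14). Those numbered 3 deviated together (0.24). The numbers were not taken as pairs. Other-numbered arrays ran from -0.18 to 0.30. The highest were control 2 with TDP-43 siRNA 1 (0.30) and control 1 with TDP-43 siRNA 2 (0.23). With control 3 and TDP-43 siRNA 3, these were the only positive correlations, and they match each control array to 1 TDP-43 siRNA array. A block by that matching was not fitted, and a block by replicate number departs from it for numbers 1 and 2. Whether arrays of different numbers shared handling was not tested. With the replicate number as a block, 156 probe sets and 123 genes were called. Of the other members 0 probe sets and 0 pairs passed, and 0 related genes did. B3gat1 1454821_at then had a limma adjusted p of 0.00928, given as a description only. Dim probe sets limit what can be read of B3gat2 and the weaker probe sets of B3gat1 and Ncam1, and 5 of 17 probe sets lay below the filter. Wide confidence intervals limit what can be read of B4galt2.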

Other observations

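One more probe set, 1456905_at, is assigned to B4galt2 together with Ccdc24 and was left out for that reason. It read 56.2, 66.5 and 75.7 in control arrays and 73.3, 48.2 and 39.0 after TDP-43 siRNA, with overlapping groups (log2 difference -0.28, SE 0.25, limma adjusted p = 0.728).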
